A study of Rattus norvegicus with 20 samples.

Results

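The vesicular glutamate transporters are the 3 proteins that fill synaptic vesicles with glutamate: VGLUT2 (gene Slc17a6), VGLUT1 (Slc17a7) and VGLUT3 (Slc17a8). Their transcripts were read as the 3 rows with these symbols, out of the 17168 genes counted in hippocampal RNAseq of 20 female rats at 4 months of age. The set was selected on the RPM of Slc17a6 in treated and untreated transgenic rats, where it stood out, and its paralogs were added. Values of the 3 genes in that comparison are therefore a description with no test, while the genotype comparison, which played no part in the choice, was tested.

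The rats were wild type F344 (WT) or TgF344-AD (Tg-AD), which carries human familial Alzheimer's disease transgenes, mutant APP among them, under a prion promoter that is not restricted to neurons that use glutamate. Untreated rats (NT) ate plain rodent chow. Treated rats (TR) ate chow with DZ/DIB from day 52, a combination of diazoxide, an activator of ATP-sensitive potassium channels, and dibenzoylmethane. The genotype comparison held 5 WTNT and 5 TGNT rats. The treatment comparison held 4 other TGNT rats and 6 TGTR rats, so every rat in it was transgenic and treated WT rats were not analysed here. Each library came from 1 rat, labelled as left hippocampus, whereas the study's methods name the right one.

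Glutamate enters the vesicle through these transporters, driven by the voltage and proton gradient that the vesicular proton ATPase builds up. VGLUT1 is the main form in pyramidal and granule neurons of cortex and hippocampus. VGLUT2 is the main form in thalamus, hypothalamus and brainstem, and within the hippocampal formation it is found in the subiculum, in Cajal-Retzius cells and in axons that arrive from subcortical nuclei. Axons that arrive from elsewhere bring the protein but little of its mRNA. VGLUT3 is carried by fewer cells, among them interneurons that make cholecystokinin (CCK) and neurons that also release serotonin or acetylcholine.

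Estimated counts summed to between 5848458 and 9926088 per library in the genotype comparison and to between 9215039 and 14175594 in the treatment comparison. Levels are given as RPM, a gene's reads scaled to a common library size by the authors, with TMM factors from the 10 rats of each table. The tables were scaled apart and their TGNT rats were different animals, so tests were run only within a table. Markers of the tissue were present, with 5 of 6 listed CA1 genes, 9 of 11 CA2 and CA3 genes and 5 of 8 dentate gyrus genes at a mean of at least 1 RPM in each table. The library of TGTR rat 5 stood apart, with 3857 RPM summed over 12 choroid plexus markers (the tissue that secretes cerebrospinal fluid), against 93.8 to 313 RPM in the other 9 libraries of its table. Transcript lengths were not used here, so RPM are not compared between the 3 genes.

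Slc17a6 was the most uneven of the 3 transporters between rats of a genotype. It measured 14.9, 44.5, 65.9, 29.2 and 38.2 RPM in WTNT rats 1 to 5. In TGNT rats 1 to 5 of the same comparison it measured 32.1, 54.4, 44.0, 45.6 and 42.4 RPM. WTNT rats 1 and 3 were the lowest and the highest of the 10, and all 5 TGNT rats lay between them. The 4.42-fold spread among WTNT rats rested on 90 to 520 reads per rat, for which counting alone gives an error of 4.39% to 10.5%. The coefficient of variation was 49.1% in WTNT and 18.3% in TGNT rats. Of the 8388 genes with a mean of at least 10 RPM in WTNT rats, 99.4% had a lower coefficient than Slc17a6, and their median was 9.34%.

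Slc17a7, the transcript of the transporter of most hippocampal principal neurons, measured 1170, 922, 774, 988 and 967 RPM in WTNT rats 1 to 5. It measured 1083, 914, 899, 832 and 777 RPM in TGNT rats 1 to 5. The groups overlapped almost completely, and WTNT rat 3, which was highest in Slc17a6, was the lowest of the 10 in Slc17a7. WTNT rat 1, lowest in Slc17a6, was the highest in Slc17a7.

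Slc17a8 was measured at 14.4, 16.7, 10.8, 18.9 and 12.6 RPM in WTNT rats 1 to 5. In TGNT rats 1 to 5 it was measured at 11.7, 11.0, 12.7, 15.2 and 13.0 RPM. The TGNT values lay within the range of the WTNT values. Its estimated counts, 73.1 to 163 per rat in this comparison, were fractions in each of the 20 rats of the series, whereas Slc17a6 and Slc17a7 had whole numbers in all 20. RSEM gives a fraction for a gene where it divides reads between genes. The level of Slc17a8 is therefore less certain than its count alone would say.

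**Figure D1:**
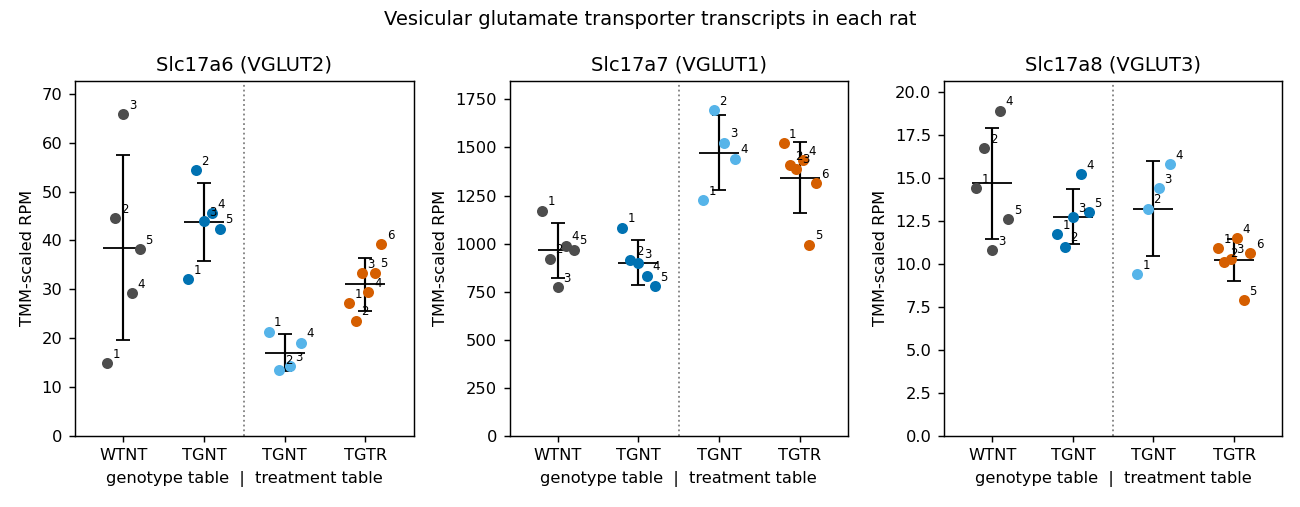
Level of each transporter transcript in every rat (vertical axis, TMM-scaled RPM from 0, a separate scale for each gene) by group (horizontal axis). Points are single rats with their number, the long dash is the group mean and the bar is ± 1 SD (n = 5 WTNT, 5 TGNT, 4 TGNT and 6 TGTR), and the dotted line parts the 2 tables, which were scaled apart. Slc17a6 runs from 14.9 to 65.9 RPM in WTNT rats, and its TGTR rats (23.6 to 39.2 RPM) lie above the TGNT rats of the same table (13.5 to 21.3 RPM).

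The first question was whether the transporter transcripts differ between genotypes without treatment. None of the 3 differed beyond the spread between rats. Slc17a6 averaged 38.5 ± 18.9 RPM in WTNT and 43.7 ± 7.998 RPM in TGNT rats (SD, n = 5 each), a log2 fold change of 0.17 with a standard error of 0.26. Its adjusted p was 1 in edgeR's quasi-likelihood test, and the exact two-sided permutation test of the means gave p = 0.595 (smallest possible 0.00794). The 95% interval of the fold change ran from 0.765 to 1.65, so a difference of 1.5-fold upward was not excluded by these 10 rats. The direction rested on WTNT rat 1, without which the log2 fold change was -0.04, and without WTNT rat 3 it was 0.43.

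Slc17a7 averaged 964 ± 142 RPM in WTNT and 901 ± 116 RPM in TGNT rats, a log2 fold change of -0.09 ± 0.10 (SE; adjusted p = 1 in edgeR, exact permutation p = 0.46). The interval of the fold change, 0.808 to 1.09, was narrower than that of Slc17a6. Slc17a8 averaged 14.7 ± 3.24 RPM in WTNT and 12.7 ± 1.60 RPM in TGNT rats, a log2 fold change of -0.19 ± 0.15 (SE; adjusted p = 1 in edgeR, exact permutation p = 0.278). Its fold change had an interval of 0.701 to 1.09. Called genes, those with at least 1.5-fold change and an adjusted p below 0.05, were 2 of 17168 (0.0116%), and the transporters were not among them.

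The ratio of 2 transcripts within a library does not depend on how libraries are scaled. The log2 ratio of Slc17a6 counts to Slc17a7 counts was -4.79 ± 1.01 in WTNT and -4.38 ± 0.40 in TGNT rats (SD), a difference of 0.42 (exact two-sided permutation test, p = 0.476). The difference was 0.04 without WTNT rat 1 and 0.73 without WTNT rat 3. The log2 ratio of Slc17a8 to Slc17a7 was -6.06 ± 0.29 in WTNT and -6.14 ± 0.32 in TGNT rats (exact two-sided permutation test, p = 0.643). Neither ratio separated the genotypes.

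In the treatment comparison Slc17a6 was higher on average in treated rats, and Slc17a7 and Slc17a8 were lower on average. Slc17a6 measured 21.3, 13.5, 14.2 and 19.1 RPM in TGNT rats 1 to 4. In the 6 TGTR rats its lowest value was 23.6, its median 31.4 and its highest 39.2 RPM. Each TGTR rat was above each TGNT rat, which is the pattern that led to the choice of this gene and is not evidence beyond it. The means were 17.02 ± 3.81 RPM and 31.0 ± 5.49 RPM (SD, n = 4 and 6), a log2 fold change of 0.87 with a standard error of 0.16, or 1.82-fold. The gap between the groups, from 21.3 RPM in TGNT rat 1 to 23.6 RPM in TGTR rat 2, was smaller than the SD of either group.

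Slc17a7 measured 1225, 1695, 1524 and 1442 RPM in TGNT rats 1 to 4. In the TGTR rats it ran from 994 through a median of 1398 to 1523 RPM. The groups overlapped, and the lowest value was that of TGTR rat 5, the library with the choroid plexus markers. The log2 fold change was -0.13 with a standard error of 0.11, and -0.05 without TGTR rat 5.

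Slc17a8 measured 9.38, 13.2, 14.4 and 15.8 RPM in TGNT rats 1 to 4. In the TGTR rats it ran from 7.88 through a median of 10.4 to 11.5 RPM. TGNT rat 1 lay among the treated rats, and the other 3 TGNT rats lay above all 6 of them. The log2 fold change was -0.36 with a standard error of 0.14, or 0.777-fold, and -0.30 without TGTR rat 5, which had the lowest value.

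Within libraries, the log2 ratio of Slc17a6 to Slc17a7 counts was -6.45 ± 0.51 in TGNT and -5.44 ± 0.40 in TGTR rats (SD), a difference of 1.01. The ranges, -6.98 to -5.85 and -5.90 to -4.89, overlapped at their ends. The log2 ratio of Slc17a8 to Slc17a7 was -6.82 ± 0.24 in TGNT and -7.04 ± 0.08 in TGTR rats. Both ratios use the contrast that selected the genes, so they are given with no test. By the same rule 0 of 17168 genes (0%) were called in edgeR's quasi-likelihood test, with 843 (4.91%) at an unadjusted p under 0.05. DESeq2 called 3 genes, edgeR's exact test 3, its likelihood ratio test 5 and limma-trend 0.

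Untreated Tg-AD rats are in both tables. Slc17a6 averaged 43.7 RPM in the TGNT rats of the genotype table and 17.02 RPM in those of the treatment table, while Slc17a7 averaged 901 and 1472 RPM and Slc17a8 12.7 and 13.2 RPM. The tables were scaled apart and no rat is in both, so these pairs of values are set side by side and were not tested.

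Across rats of the same group, the coefficients between Slc17a6 and Slc17a7 were negative. With group means subtracted from log2(RPM + 1), Pearson's r over the 10 rats was -0.822 in the genotype comparison (Spearman's rho -0.673; permutation p = 0.00976 and 0.0584, adjusted p = 0.101 and 0.3 over the 72 relations computed in both comparisons), which did not pass the correction. Without the 2 rats farthest from the median of Slc17a7, WTNT 1 and 3, r was -0.542. Coefficients of the transporters in the treatment comparison are given as a description, as their levels are. There r was -0.619 and rho -0.745, and r was -0.726 without TGNT rat 1 and TGTR rat 5. Slc17a8 had an r of -0.357 with Slc17a6 in the genotype comparison (permutation test, adjusted p = 0.624) and of -0.336 in the treatment comparison.

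**Figure D2:**
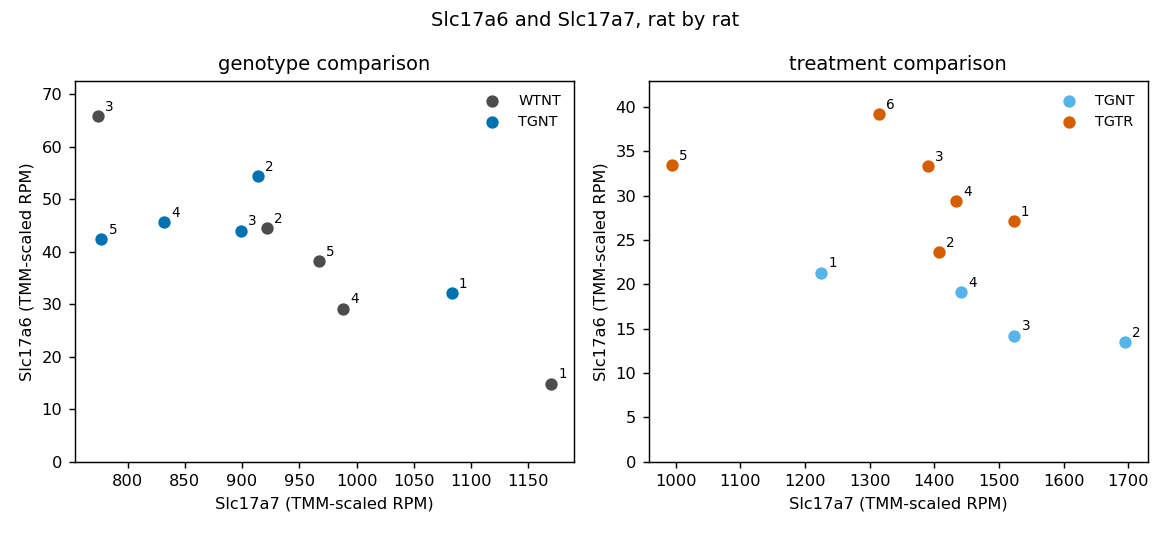
Slc17a6 (vertical axis, TMM-scaled RPM) against Slc17a7 (horizontal axis, TMM-scaled RPM) in the genotype comparison (left) and the treatment comparison (right). Each numbered point is 1 rat. The WTNT rats run from rat 3 (65.9 RPM of Slc17a6, 774 RPM of Slc17a7) to rat 1 (14.9 and 1170 RPM).

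Dissected hippocampus can hold varying amounts of neighbouring tissue, and in bulk RNA fewer cells of a type and less RNA per cell cannot be told apart. Levels of 11 lists of cell and region markers were therefore set beside the transporters. The list of the subiculum and adjoining cortex ran closest to Slc17a6. It holds Fn1, Nts, Nr4a2, Etv1, Tle4, Foxp2, Fezf2, Rorb and Tbr1, all 9 of which were at a mean of at least 1 RPM, and several of them mark deep-layer projection neurons of the cortex. None is specific to the subiculum, and the list does not hold Slc17a6.

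With group means subtracted, r between Slc17a6 and the mean log2(RPM + 1) of this list was 0.951 over the 10 rats of the genotype comparison (rho 0.903; permutation p = 0.00161 and 0.00122, adjusted p = 0.058 and 0.0803), and did not pass the correction. It was 0.913 without WTNT rats 1 and 3, the lowest and the highest in both measures. With 0.1 added to RPM in place of 1, r was 0.967 (permutation test, adjusted p = 0.0241). In the treatment comparison r was 0.854 and rho 0.879, and r was 0.734 without TGNT rat 2 and TGTR rat 2. Single groups of 4 or 5 rats are too small for a correlation of their own.

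The next largest positive coefficient with Slc17a6 in the genotype comparison was that of the GABA neuron list, at 0.778 (rho 0.588; permutation p = 0.0432 and 0.172, adjusted p = 0.164 and 0.428). It was 0.364 without WTNT rats 1 and 3, and 0.26 in the treatment comparison. The choroid plexus list had an r of 0.534 in the genotype comparison (permutation adjusted p = 0.245), where it rested on 3 genes. In the treatment comparison its r was 0.389 (rho 0.648), and 0.581 without TGTR rats 2 and 5. The glia list had an r of 0.421 and -0.119 in the 2 comparisons. The thalamus and habenula list had an r of 0.384 and 0.377, Cajal-Retzius cells 0.0621 and 0.311, and hilar mossy cells 0.244 and 0.0834. The Cajal-Retzius level rested on 3 of 6 listed genes, of which Tp73 and Ebf3 had group means of 1.03 to 1.61 RPM in the genotype comparison. Drd2 and Nmb of the hilar mossy cell list had group means of 1.67 to 1.88 RPM there, so both levels are noisy. Of the 12 listed genes of thalamus and habenula, 9 were at a mean of at least 1 RPM in each table. Among these Ntng1 averaged 63.7 RPM in WTNT and 74.8 RPM in TGNT rats of the genotype comparison. Gbx2, a transcription factor of the developing and adult thalamus, was listed at 0 in all 20 rats. The dentate gyrus list had an r of -0.808 with Slc17a6 in the genotype comparison (permutation test, adjusted p = 0.145) and of -0.458 in the treatment comparison. Differences between these coefficients were not tested.

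**Figure D3:**
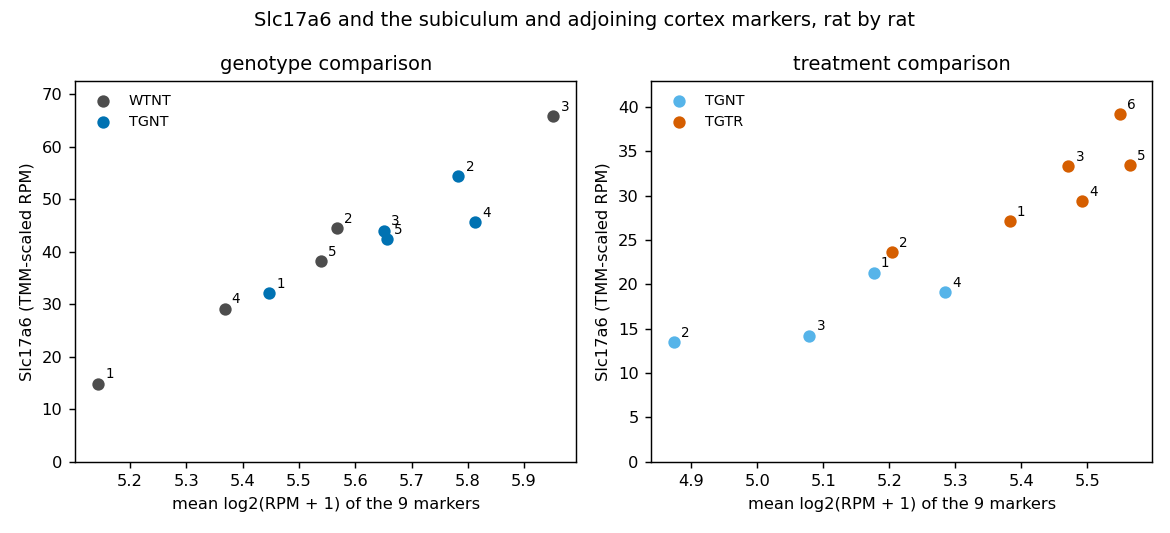
Slc17a6 (vertical axis, TMM-scaled RPM) against the mean log2(RPM + 1) of the 9 markers of the subiculum and adjoining cortex (horizontal axis), in the genotype comparison (left) and the treatment comparison (right). Each numbered point is 1 rat. WTNT rat 1 is lowest (5.14, 14.9 RPM) and WTNT rat 3 highest (5.95, 65.9 RPM) in both measures, and 5 of the 6 TGTR rats lie to the right of all 4 TGNT rats.

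The same markers also leaned one way with treatment. All 9 were higher on average in TGTR than in TGNT rats. Their median log2 fold change was 0.38, against 0.0002 over the 11855 genes with a mean of at least 1 RPM, of which 5940 were higher. For 4 of the 9 the unadjusted p was under 0.05 in edgeR, and for 0 the adjusted p was. Over all 17168 genes, those under 1 RPM among them, 2.98% were higher at that unadjusted level. The 4 were Nr4a2 (log2 fold change 0.44 ± 0.12, SE), Tbr1 (0.46 ± 0.14), Fezf2 (0.38 ± 0.17) and Tle4 (0.13 ± 0.04). Without TGTR rat 5, 8 of 9 were higher and the median was 0.35. In that fit 4 of the 9 were higher at an unadjusted p under 0.05 in edgeR, as were 473 of the 11855 genes. Summed over the list, TGNT rats held 418 to 588 RPM and TGTR rats 525.7 to 680 RPM. In the genotype comparison 5 were higher and 4 lower in TGNT rats, with a median of 0.10, and the sums were 553 to 936 RPM for WTNT rats against 711 to 832 RPM for TGNT rats.

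When the level of this list was entered as a covariate, an alternative chosen after the data were seen, the log2 fold change of Slc17a6 with treatment was 0.31 with a standard error of 0.15, against 0.87 without it. That of Slc17a7 was 0.15 ± 0.15 (SE), against -0.13, and that of Slc17a8 was -0.35 ± 0.23 (SE), against -0.36. For TGNT against WTNT, the log2 fold change of Slc17a6 with the covariate was -0.06 with a standard error of 0.10, against 0.17 without the covariate. The part of the dissection in these differences was not tested, since no measure of it other than the transcripts was used here.

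Lists of other neurons are given for the treatment comparison, where their summed levels overlapped between groups. All 9 measured CA2 and CA3 markers were lower on average in TGTR rats (median log2 fold change -0.20, summed level 494 to 586 RPM in TGNT against 416 to 522 RPM in TGTR rats), and 9 of 9 were lower without TGTR rat 5 too. Over all 11855 genes with a mean of at least 1 RPM, 5915 were lower. Of the 9 markers 1 was lower at an unadjusted p under 0.05, and 0 had an adjusted p under 0.05. Over all 17168 genes, those under 1 RPM among them, 1.93% were lower at that unadjusted level. Of the 10 markers of GABA neurons, the class that holds the CCK interneurons, 8 were higher (median 0.12), 1 of them at an unadjusted p under 0.05 and 0 at an adjusted one. Of the 5 measured CA1 markers 4 were higher and 1 lower (median 0.16, and 0.27 without TGTR rat 5), 1 of them at an unadjusted p under 0.05 in edgeR. Over all 17168 genes, those under 1 RPM among them, 2.98% were higher at that unadjusted level. In the fit without TGTR rat 5, 2 of the 5 CA1 markers were higher at that level, as were 473 of the 11855 genes. Of the 5 measured dentate gyrus markers 2 were higher and 3 lower (median -0.05), and of the 8 general neuron markers 1 was higher and 7 lower (median -0.04). Without TGTR rat 5, 4 of the dentate gyrus markers were higher and 1 lower (median 0.05). In that fit 2 of the general neuron markers were higher and 6 lower (median -0.01). The part of these cells in the values of Slc17a7 and Slc17a8 was not tested.

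**Figure D4:**
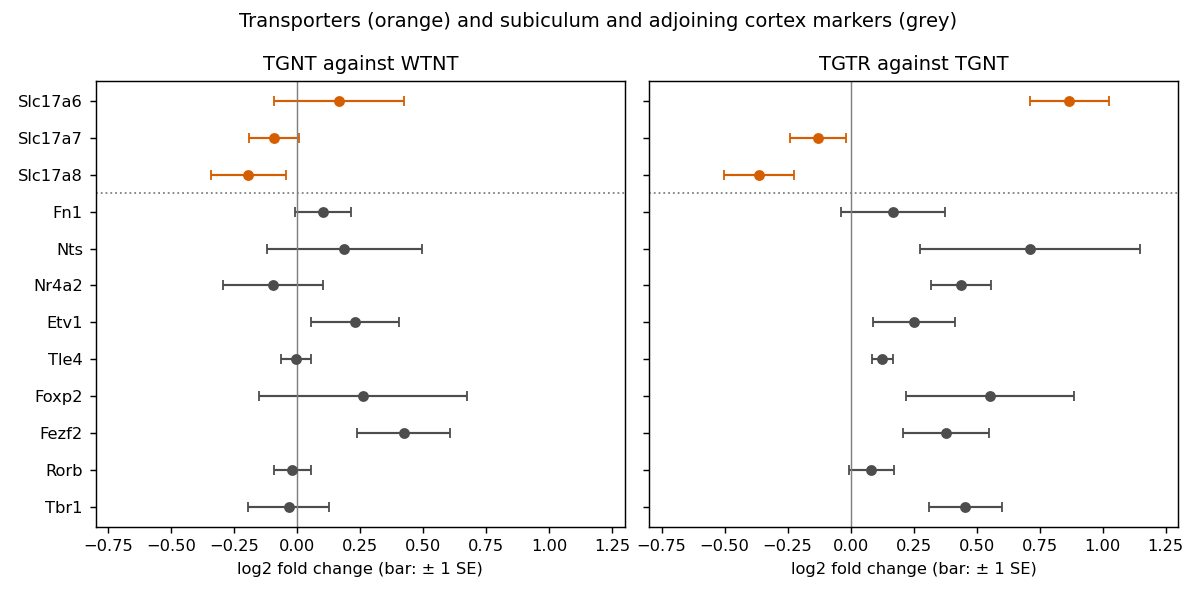
Log2 fold change (horizontal axis) of the 3 transporters (orange, top) and of the 9 markers of the subiculum and adjoining cortex (grey), for TGNT against WTNT (left) and TGTR against TGNT (right), from edgeR. Bars are ± 1 SE. With treatment Slc17a6 lies at 0.87, Slc17a7 at -0.13 and Slc17a8 at -0.36, and all 9 markers lie above 0.

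Slc17a7 ran against the same list, with an r of -0.868 in the genotype comparison (rho -0.77; permutation adjusted p = 0.101 and 0.176; -0.662 without WTNT rats 1 and 3) and -0.59 in the treatment comparison (rho -0.77; -0.559 without TGNT rat 2 and TGTR rat 2). With the dentate gyrus list, whose granule neurons use VGLUT1, its r was 0.767 in the genotype comparison (permutation adjusted p = 0.109) and 0.794 in the treatment comparison. Without the 2 rats farthest from the median these were 0.46 and 0.313, so they rested on WTNT rats 1 and 3 and on TGNT rat 1 and TGTR rat 5.

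In the treatment comparison the r of Slc17a8 with the glia list was 0.834 (rho 0.818). Without TGNT rat 1 and TGTR rat 5 it was 0.549, and in the genotype comparison it was 0.157 (permutation adjusted p = 0.806). With the hilar mossy cell list r was 0.791 in the treatment comparison (rho 0.794; 0.7 without TGNT rats 1 and 4) and 0.466 in the genotype comparison.

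The genes that followed each transporter most closely were ranked by the smaller of the 2 values of r (1 per comparison, 10 rats each, group means subtracted) among 11553 genes. For Slc17a6 they included Pak1, a kinase of the actin cytoskeleton (r 0.886 and 0.96), Pde4d, a cAMP phosphodiesterase (0.964 and 0.881), and Prph, the intermediate filament peripherin (0.878 and 0.872). With treatment Pak1 had a log2 fold change of 0.33 ± 0.06 (SE; adjusted p = 0.4 in edgeR), while Pde4d had -0.002 ± 0.06 (SE). That of Prph was 1.23 ± 0.46 (SE; adjusted p = 0.964 in edgeR), at a mean of 1.69 RPM in TGNT and 3.93 RPM in TGTR rats. For Slc17a7 the 5 were Mink1, Arf3, Pik3r2, Cacnb3 and Svop, a synaptic vesicle protein, with r from 0.962 to 0.987. For Slc17a8 they were Mef2a, Rasd1, Slc24a2, Zeb2 and Rspo2, with r from 0.879 to 0.948. They were picked as extremes of a ranking, so these r carry no test.

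The wider machinery of the glutamatergic vesicle was read from 4 lists of 46 measured genes. Among the other SLC17 genes, Slc17a5, which exports sialic acid from lysosomes, was the clearly measured one, at 24.6 ± 1.71 RPM in WTNT and 27.3 ± 2.26 RPM in TGNT rats (log2 fold change 0.16 ± 0.08, SE, adjusted p = 1 in edgeR) and with a log2 fold change of -0.02 ± 0.08 (SE) with treatment. Slc17a9, the vesicular nucleotide transporter, was near 1 RPM, at 0.839 ± 0.435 RPM in TGNT and 1.21 ± 0.283 RPM in TGTR rats. Slc17a1, Slc17a2 and Slc17a4, phosphate and organic anion transporters of other organs, stayed below 0.4 RPM, and Slc17a3 was listed at 0 in all 20 rats.

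In the genotype comparison 1 of the 46 genes had an unadjusted p under 0.05, against 3.23% of all genes, and 0 had an adjusted p under 0.05. It was Atp6v1f, a subunit of the proton ATPase, at 62.2 ± 2.43 RPM in WTNT and 69.4 ± 2.34 RPM in TGNT rats (log2 fold change 0.16 ± 0.06, SE, adjusted p = 1 in edgeR). Of the 17 genes of vesicle acidification 15 were higher and 2 lower in TGNT rats. Their median log2 fold change was 0.04. Over the 11641 genes with a mean of at least 1 RPM, 6111 were higher and the median was 0.007.

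In the treatment comparison 4 of the 46 (8.70%) had an unadjusted p under 0.05, against 4.91% of all genes, again with 0 at an adjusted p under 0.05. All 4 were higher in TGTR rats. They were Sv2c, a synaptic vesicle glycoprotein (14.2 ± 1.35 and 17.6 ± 1.57 RPM, log2 fold change 0.31), the glutamine transporters Slc38a2 (120 ± 7.09 and 145 ± 15.2 RPM, 0.28) and Slc38a1 (97.6 ± 6.81 and 108 ± 8.31 RPM, 0.15), and Gls2, a glutaminase (31.8 ± 2.55 and 35.6 ± 2.14 RPM, 0.17). Their adjusted p in edgeR ran from 0.941 to 0.985. Without TGNT rat 2, TGNT rat 3 or TGTR rat 6 the number was 2, and without TGNT rat 1 or TGTR rat 2 it was 6. Slc38a2, Slc38a1 and Gls2 were the only higher genes among the 16 measured for glutamate supply and clearance. The other 13 were lower in TGTR rats, and the median log2 fold change of the 16 was -0.04. Without TGTR rat 5, 5 of the 16 were higher and 11 lower (median -0.02). Over the 11855 genes with a mean of at least 1 RPM, 5915 were lower with all rats in the fit.

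The glial glutamate transporter Slc1a2 had a log2 fold change of -0.009 with genotype and -0.005 with treatment. The 17 acidification genes lay between -0.09 and 0.03 with treatment, 3 of them higher and 14 lower in TGTR rats. Without TGTR rat 5, the library with the choroid plexus markers, 9 of the 17 were higher and 8 lower (median 0.001). Transporters that load other transmitters into vesicles showed no difference past an adjusted p of 0.05 either. Slc32a1, the transporter of GABA and glycine, had a log2 fold change of 0.01 ± 0.11 (SE) with genotype and 0.09 ± 0.08 (SE) with treatment, and Slc18a2, the transporter of monoamines, had 0.01 ± 0.11 (SE) and 0.24 ± 0.13 (SE).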

How the data were processed

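Libraries of poly(A) mRNA from 20 rats were analysed. Per the labels, the submitters' processing notes name bcl2fastq 2.17, Bowtie2 2.1.0, RSEM 1.2.15, edgeR and the build rn6. The annotation and the read filters are not given in the sources used here. The authors deposited estimated counts per gene symbol (RSEM, not normalized) and a signal in RPM, which they scaled with TMM factors over the 10 rats of each table. Estimated counts were rounded and all 17168 genes of each table were fitted with edgeR 4.0.16 in R 4.3.3 (TMM factors, quasi-likelihood test, two-sided, Benjamini-Hochberg adjustment). A gene was called where the change was at least 1.5-fold with an adjusted p below 0.05. Single values were tested with exact permutation tests, and relations across rats with 100000 permutations within groups. Fits were tested on simulated data first.

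Lists held 149 genes, 140 of them in the tables. Named were the 3 transporters, pathway genes with an unadjusted p under 0.05 or among the 3 largest changes of their list, and the 5 genes most like each transporter (some of these genes are not reported here). Slc1a2, Slc32a1, Slc18a2 and Gbx2 were named after their values were seen, as were markers and SLC17 relatives outside this rule. The transporters, lists and tests were chosen with earlier results of these data known. Alternatives were other edgeR tests, DESeq2 1.42.0, limma 3.58.1 on log2 RPM with 1 or 0.1 added, other scalings, a low-count filter, a block for the rat number and leaving out each rat. Same-numbered rats were checked for shared deviations, and most were not the closest match. P-values of group differences set them against the spread between single rats, which edgeR estimates with help from all genes. Those of relations come from permuting rats within groups. Counting errors cover counting only.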

Additional observations from a re-analysis of the deposited data

How the results depend on the processing

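With treatment, the log2 fold change of Slc17a6 was 0.751 to 0.996 in 19 of 20 alternatives and 0.315 with the level of the subiculum list as a covariate. Its groups did not overlap, the pattern that led to its choice, so leaving out a rat could not reverse the sign. The kept sign is therefore not evidence beyond that choice. Leaving out single rats gave 0.768 to 0.996. Slc17a7 ran from -0.206 to -0.0211 in 19 alternatives and was 0.146 with that covariate, and Slc17a8 ran from -0.494 to -0.269 in all 20. For TGNT against WTNT, Slc17a6 ran from -0.0376 (without WTNT rat 1) to 0.431 (without WTNT rat 3) over the fits that left out a rat, and was -0.0616 with the covariate. Slc17a7 was 0.0285 with the covariate and -0.173 to -0.0189 in the other 19, and Slc17a8 was -0.304 to -0.101 in all 20. The log2 ratio of Slc17a8 to Slc17a7 differed between genotypes by -0.18 to 0.00952 when a rat was left out, the highest being without TGNT rat 1, and that of Slc17a6 to Slc17a7 by 0.0407 to 0.726. The causes were not tested.

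Genes called between genotypes were 2 in the test used and 4 with edgeR's likelihood ratio and exact tests. With treatment they were 0 in the test used, 5 with the likelihood ratio test, 3 with the exact test, 3 with DESeq2 and 1 with the replicate block. Pathway genes with an unadjusted p under 0.05 were 2 with DESeq2 and 4 with limma on either pseudocount between genotypes, and 1 to 3 when a rat was left out. With treatment they were 2 with the replicate block and 2 to 6 when a rat was left out. With 0.1 added to RPM, 2 of the 72 relations passed the correction, against 1 of the treatment comparison, where coefficients are a description, and the r of Slc17a6 with the subiculum list in the genotype comparison was 0.967.

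The rat numbers of the labels were also used as a block. Same-numbered rats had correlations of their deviations from -0.2 to 0.326 between genotypes and from -0.584 to 0.139 between treatments. The same-numbered TGNT rat was the closest match of WTNT rats 1 and 3, and not of WTNT rats 2, 4 and 5. In the treatment comparison it was the closest match of no TGNT rat. What a shared number stands for was not known here. With the replicate block the log2 fold changes of Slc17a6, Slc17a7 and Slc17a8 were 0.274, -0.0889 and -0.185 between genotypes and 0.751, -0.0211 and -0.284 with treatment. The standard error of Slc17a6 between genotypes was 0.169 with the block, against 0.259 without it.

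Of the 20 relations with an unadjusted p under 0.05, 3 changed sign without the 2 rats farthest from the median, all in the treatment comparison. The r of Slc17a7 was then -0.427 with Slc17a8 and -0.0145 with the neuron list, and that of Slc17a8 with the neuron list was -0.554.

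Depth limits Slc17a8 most, since counting alone gives its RPM an error of 7.25% to 11.7% per rat. With 4 to 6 rats a group, the fits cannot separate the transporter from the markers that vary with it in the same libraries.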
